A study of Mus musculus with 6 samples.

Results

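Protein tyrosine phosphatase genes were examined for Arid3a CUT&Tag peaks in mouse vascular smooth muscle cells. The genes were all protein-coding genes of the mouse annotation whose symbol begins with Ptp4a, Ptpn or Ptpr in the usual numbering, with 1 symbol excepted by the rule. This naming rule gave 39 genes of 21887, of which 20 are non-receptor genes, including 3 for phosphatases of regenerating liver (PRL), and 19 are receptor-type genes. Membership rests on the symbol, and whether each product is an active enzyme was not checked. Peaks inside a gene or within 10 kb of it were used. The family was chosen by peak presence, fold and −log10 q in these same lists, with the tall peak at Ptp4a1 already known, so these values are given as a description and support nothing further.

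Arid3a is a transcription factor that binds AT-rich DNA. In CUT&Tag an antibody tethers a transposase to a protein on chromatin, and the DNA cut around it is sequenced. All 6 libraries were made with an Arid3a antibody from 10000 primary mouse VSMCs each. A negative control siRNA (NC) had been given for 3 libraries, and siRNAs 1, 2 and 3 targeting Arid3a for the other 3, by transfection for 24 h. The commercially supplied cells served as an aortic aneurysm model under 36 h of angiotensin II, but no label gives the exposure of a library or states whether cultures were separate. Tests thus measure how far these libraries spread, and that spread may be technical only. By label each siRNA-labelled library had its own siRNA, so library and siRNA cannot be told apart within that group. Leaving out such a library also leaves out its siRNA. An antibody-free library was not analysed here, and a peak is not by itself shown to be Arid3a binding. The lists hold no transcript levels, so the knockdown was not checked.

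The labels and the lists disagree. Each of the 6 lists names its peaks after the equally numbered library of the opposite group. Libraries are therefore named by their label (NC-labelled, siRNA-labelled), and each direction below is reversed if the names inside the lists are the correct ones. The lists held 43834 to 51682 peaks, with a median of 18 to 20 fragments at the summit in the NC-labelled and 16 in each siRNA-labelled library. Background coverage, solved from the deposited columns, was 0.670, 0.673 and 0.621 fragments per base in libraries 1 to 3 of the NC label and 0.475, 0.482 and 0.538 in those of the siRNA label. Label and coverage thus cannot be told apart, with a mean 1.31 times higher in the NC-labelled group. Peaks lay within 1 kb of the gene start in all 6 libraries at 3 of 10 smooth muscle markers (Acta2, Tagln and Smtn), 2 of 6 fibroblast, 1 of 7 macrophage and leukocyte, 0 of 7 endothelial and 0 of 3 adipocyte markers. Such a peak stood at 7, 5 and 5 smooth muscle markers under the NC label and at 3, 5 and 4 under the siRNA label, and at Myh11, Des and Mylk in none. Cnn1 and Myocd each had it in 3 libraries of the NC label and 1 of the siRNA label. Endothelial markers gave 1, 0 and 1 against 2, 1 and 1, with Erg in 0 libraries of the NC label and 2 of the siRNA label. A difference of 2 or more libraries was thus seen at 2 of 10 smooth muscle and 1 of 7 endothelial markers, in opposite directions. Over all genes it was seen at 1.96%. A peak does not measure expression, so these counts do not check the cell type.

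Protein tyrosine phosphatases remove phosphate from tyrosine and thereby reverse the action of tyrosine kinases. Classical non-receptor members sit in the cytosol or on internal membranes, receptor-type members span the plasma membrane and often bind neighbouring cells or matrix, and the small PRL enzymes are anchored by a lipid and bind magnesium transporters. In vascular smooth muscle, several of them are known to act on growth factor receptors, Src family kinases and focal adhesions, which control growth and migration.

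Merging the peaks of the 6 libraries gave 323 regions at the phosphatase genes, of 79295 regions in all. Of these, 109 (33.7%) had a peak in all 6 libraries, against 37.3% of all regions, and 116 (35.9%) had a peak in 1 library, against 30.2% of all regions. At least 1 region with a peak in all 6 libraries was found at 32 of the 39 genes. Ptpn18, Ptprh, Ptprt and Ptprn2 had regions but none in all 6 libraries, and Ptprd, Ptprz1 and Ptpn20 had no peak in any library. At the edge of the 10 kb window, the outermost included region present in all libraries lay 9.69 kb from Ptprn, with deposited folds of 10.7 to 13.1. The nearest excluded one lay 10.2 kb from Ptpn9, with folds of 3.17 to 3.80.

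A peak within 1 kb of the gene's own start was present in all 6 libraries at 21 of the 39 genes (53.8%), against 45.1% of all protein-coding genes. In no library was there such a peak at 15 genes, against 42.8% of all genes counted. The non-receptor genes had a start peak in all libraries at 13 of 20 and the receptor genes at 8 of 19. Strand and start were known for 33 genes. For the other 6 (Ptp4a3, Ptpn2, Ptpn12, Ptprb, Ptprd and Ptprq) both gene ends were used, so a peak there may lie at the end of transcription.

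**Figure D1:**
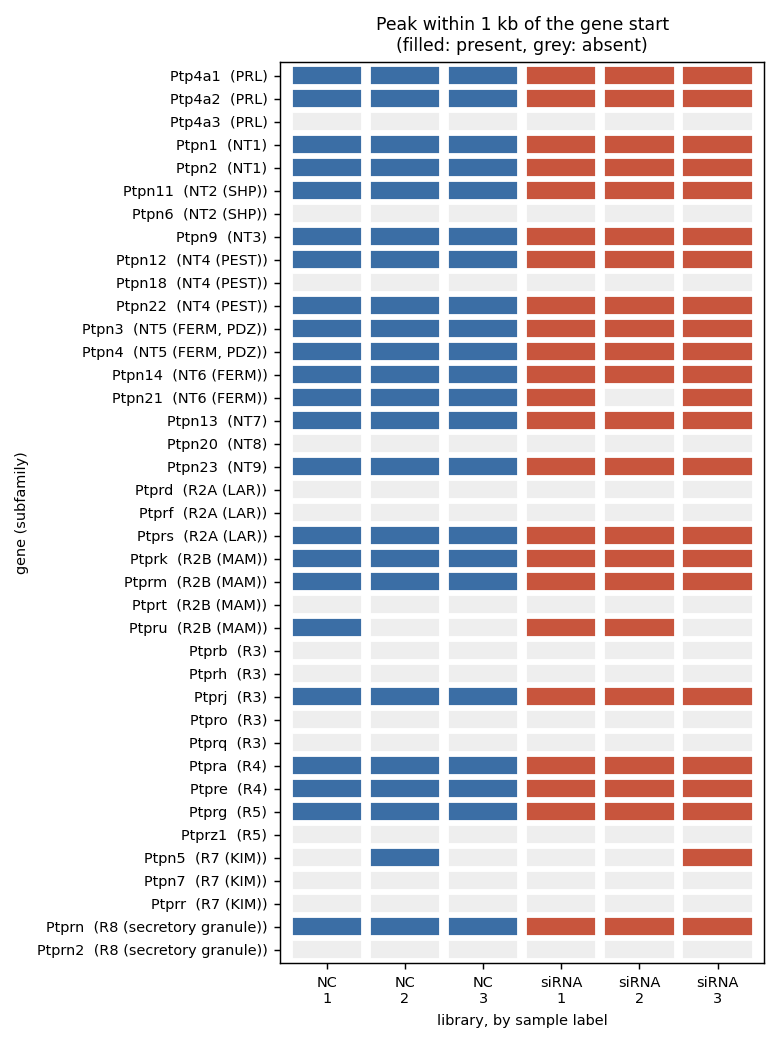
Peaks within 1 kb of the gene start, or of either gene end where the strand was not known, for the 39 phosphatase genes (rows, with subfamily) in 3 NC-labelled (blue) and 3 siRNA-labelled (red) libraries (columns). Filled cells mark a peak and grey cells none, and 36 of the 39 rows are either filled or grey throughout, with Ptpn21, Ptpn5 and Ptpru as the exceptions.

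The promoters below are shown because they hold the tallest phosphatase start peak (Ptp4a1), the leading receptor start peak (Ptprs), the start of the SHP-2 gene (Ptpn11), a promoter with no peak over it despite a tall neighbouring peak (Ptp4a2), and a promoter with the Arid3a motif but no peak (Ptpn5, upstream start). Each runs from 250 bases before to 50 after a RefSeq start in GRCm38.p6, 5′ to 3′ on the gene's strand. They lie at chr1:30949706-30950005 (Ptp4a1, minus strand), chr17:56462172-56462471 (Ptprs, minus), chr5:121191348-121191647 (Ptpn11, minus), chr4:129820229-129820528 (Ptp4a2, plus) and chr7:47133635-47133934 (Ptpn5, minus). Capitals mark the letters ATTAAA (Arid3a), CCAAT (NF-Y), GGGCGG (Sp/KLF), TTCCGG (ETS), TGACTCA (AP-1) and TGACGT (CRE) on either strand.
Ptp4a1: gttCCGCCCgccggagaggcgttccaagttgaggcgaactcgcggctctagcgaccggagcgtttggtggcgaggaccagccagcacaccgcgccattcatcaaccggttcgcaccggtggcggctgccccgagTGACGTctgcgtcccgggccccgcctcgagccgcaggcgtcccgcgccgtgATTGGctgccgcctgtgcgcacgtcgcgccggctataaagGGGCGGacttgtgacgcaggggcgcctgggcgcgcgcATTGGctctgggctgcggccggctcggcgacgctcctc
Ptprs: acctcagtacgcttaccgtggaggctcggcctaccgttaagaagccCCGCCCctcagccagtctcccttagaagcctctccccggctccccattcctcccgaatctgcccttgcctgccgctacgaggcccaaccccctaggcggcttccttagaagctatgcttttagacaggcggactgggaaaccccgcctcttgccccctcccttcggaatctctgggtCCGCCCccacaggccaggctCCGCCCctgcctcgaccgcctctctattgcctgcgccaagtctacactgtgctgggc
Ptpn11: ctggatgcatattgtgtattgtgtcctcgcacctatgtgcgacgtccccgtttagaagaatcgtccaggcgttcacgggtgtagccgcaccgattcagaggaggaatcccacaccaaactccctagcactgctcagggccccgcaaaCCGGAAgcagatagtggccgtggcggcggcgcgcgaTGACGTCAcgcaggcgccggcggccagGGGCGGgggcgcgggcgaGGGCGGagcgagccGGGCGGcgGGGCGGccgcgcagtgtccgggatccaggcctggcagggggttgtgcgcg
Ptp4a2: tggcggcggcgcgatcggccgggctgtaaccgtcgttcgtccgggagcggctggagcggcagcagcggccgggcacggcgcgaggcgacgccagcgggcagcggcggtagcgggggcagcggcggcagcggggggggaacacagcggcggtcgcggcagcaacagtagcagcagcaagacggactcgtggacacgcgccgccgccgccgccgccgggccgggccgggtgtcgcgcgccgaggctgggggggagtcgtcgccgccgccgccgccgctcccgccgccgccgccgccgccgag
Ptpn5: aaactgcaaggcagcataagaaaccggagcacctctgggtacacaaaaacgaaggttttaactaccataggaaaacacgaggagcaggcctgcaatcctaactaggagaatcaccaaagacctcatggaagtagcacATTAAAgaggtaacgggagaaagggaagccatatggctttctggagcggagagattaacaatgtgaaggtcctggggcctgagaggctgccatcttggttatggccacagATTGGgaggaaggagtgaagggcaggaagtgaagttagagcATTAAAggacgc
Motifs of different factors can overlap where their letters do, and a palindromic CRE is counted on both strands and capitalised as a single stretch. In the Ptp4a1 promoter the NF-Y letters start at positions -65 and 12 from the start base, those of Sp/KLF at -247 and -25, and the CRE at -116. The Ptp4a2 promoter was 81.7% G and C, held 60 CpG and none of the motifs searched.

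RefSeq promoters were found for 33 of the 39 genes, 46 promoters in all. A peak covered some of the 300 bases in all 6 libraries at 17 of them (37.0%), against 38.5% of all 21263 promoters, and in no library at 22. The 17 belonged to 16 genes, while 19 of the 33 genes had a peak within 1 kb of a start in all libraries. Promoters with a peak over them in all libraries had a median GC content of 69.0%, against 60.0% in those with no peak, and a median of 33 against 10 CpG. Over all promoters the same medians were 62.3% against 49.7% GC and 23 against 4 CpG, so the phosphatase promoters differed in the same direction as the genome's.

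The Arid3a letters ATTAAA occurred in 3 of the 46 phosphatase promoters (6.52%, against 11.7% of all promoters). They stood in the upstream Ptpn5 promoter, an internal Ptprg promoter and an internal Ptprr promoter, none of which had a peak over it in any library. Over all promoters they occurred in 5.97% of those with a peak in all libraries and in 17.2% of those with none. CRE letters occurred in 9 phosphatase promoters (19.6%, against 8.49% of all), Sp/KLF letters in 26 (56.5%, against 46.2%) and NF-Y letters in 11 (23.9%, against 38.2%). ETS letters stood in 6 (13.0%, against 18.7%) and AP-1 letters in 2 (4.35%, against 4.66%). The phosphatase promoters had a median GC content of 64.2%, against 56.3% over all promoters. The part of base composition in these shares was not tested. A match describes letters in this window only.

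Among the PRL genes, Ptp4a1 held the tallest peak of the family. Its region (chr1:30949448-30950341) spans the gene start, and its summit lay at -170 or -169 bases from that start in every library. The deposited fold over local background, the authors' own value for each peak, was 22.2, 22.1 and 23.2 in libraries 1 to 3 of the NC label and 24.5, 25.7 and 25.4 in those of the siRNA label. The fold was higher in each siRNA-labelled than in each NC-labelled library. Its −log10 q was 512, 498 and 485 against 412, 489 and 541, which placed the region at rank 6, 10 and 6 of the NC-labelled and 6, 6 and 4 of the siRNA-labelled lists. The summit held 544, 529 and 505 against 417, 486 and 540 fragments, so the unscaled fragments of the groups overlapped.

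Ptp4a2, a close relative, had its leading region (chr4:129819536-129820159) inside the annotated gene. It was centred at -0.63 kb from the RefSeq start used, which lies inside the gene too, and ended just short of the promoter shown above. Its fold was 12.9, 12.3 and 12.3 under the NC label and 12.9, 15.2 and 14.2 under the siRNA label, with 221, 222 and 188 against 147, 190 and 209 summit fragments. Folds and fragments both overlapped between the labels. Ptp4a3 had no peak at either gene end, and its highest region had folds of 4.27 to 5.74.

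**Figure D2:**
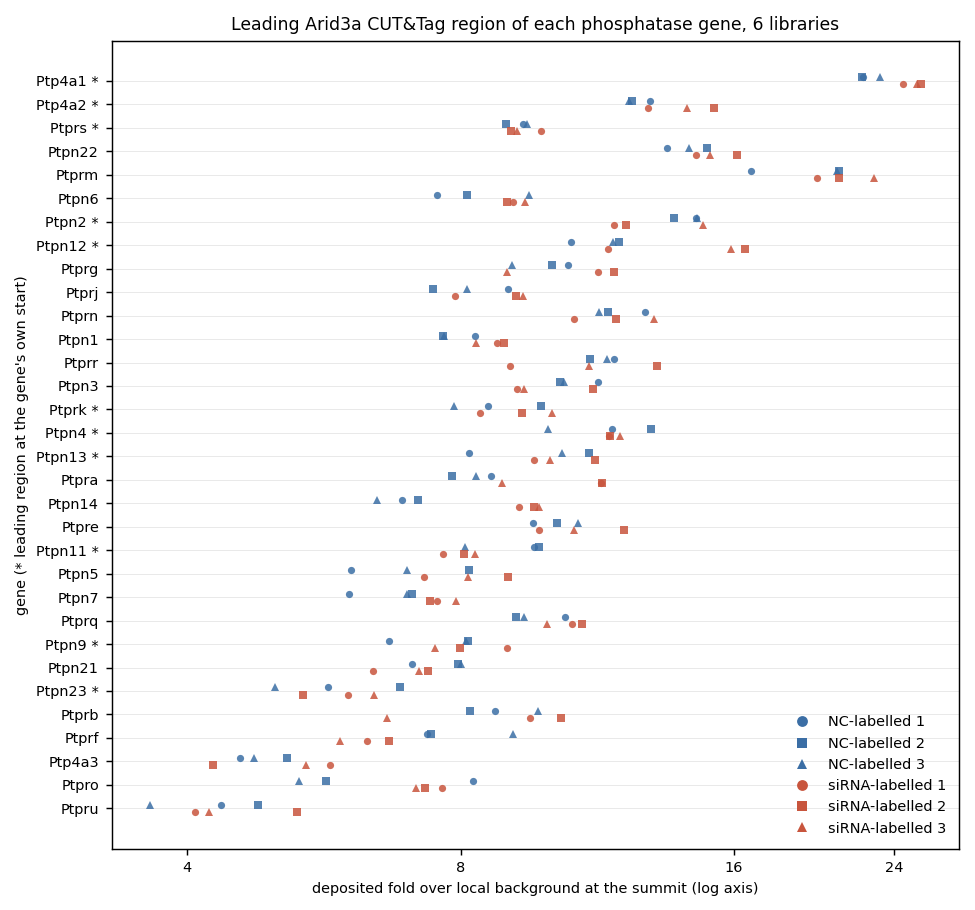
Deposited fold over local background at the summit (log axis) of the leading region of each of 32 phosphatase genes, for 3 NC-labelled (blue) and 3 siRNA-labelled (red) libraries, with genes ordered by the smallest within-list percentile of −log10 q. Ptp4a1 lies highest at 22.1 to 25.7, Ptprm follows at 16.7 to 22.8, and an asterisk marks the 11 genes whose leading region is at their own start.

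Of the non-receptor genes, Ptpn1 and Ptpn2 code for the insulin receptor and JAK phosphatases PTP1B and TC-PTP. Both had a start peak in every library, but they differed in where the leading region lay. Ptpn1 had 11 regions, 6 of them in all libraries, and its leading region (chr2:167949088-167950234) lay 17.3 kb downstream of the start used. The folds there of 8.30, 7.65 and 7.67 under the NC label and 8.77, 8.93 and 8.31 under the siRNA label did not overlap. For Ptpn2, on chromosome 18, the leading region was at a gene end, with folds of 14.5, 13.7 and 14.6 under the NC label and 11.8, 12.2 and 14.8 under the siRNA label. Libraries 1 and 2 of the siRNA label lay below the NC-labelled range and library 3 just above it.

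The SHP genes Ptpn11 and Ptpn6 differed at their starts. Ptpn11 codes for SHP-2, which carries signals from growth factor receptors to Ras, and had a region over its start (chr5:121190975-121191824) in every library. This region held 40, 39 and 26 against 25, 24 and 27 unscaled summit fragments. Its folds of 9.63, 9.76 and 8.08 against 7.66, 8.07 and 8.29 overlapped. After scaling by background coverage, its log2 difference, siRNA-labelled minus NC-labelled, was -0.03. Ptpn6 codes for SHP-1, best known from blood cells, and had no start peak in any library. Its leading region (chr6:124740150-124741760) was centred at -2.25 kb from its start, at the starts of Atn1 and Grcc10, with folds of 7.53, 8.14 and 9.52 against 9.13, 9.0 and 9.42. This region is therefore assigned to Ptpn6 by distance alone.

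Within the PEST group, Ptpn12 codes for the phosphatase of the focal adhesion protein p130Cas. Its leading region (chr5:21055593-21056637), at a gene end, had folds of 10.6, 11.9 and 11.8 under the NC label and 11.6, 16.4 and 15.9 under the siRNA label. The siRNA-labelled library 1 lay within the NC-labelled range and the other two above it. Ptpn22, known as a brake on lymphocyte receptors, had 10 regions, and the highest (chr3:103913984-103914786) lay at the start of its neighbour Rsbn1, with folds of 13.5, 14.9 and 14.3 against 14.5, 16.1 and 15.0. Ptpn18 had 1 region, in siRNA-labelled library 1.

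The FERM-domain genes, which code for phosphatases linked to the cell cortex, had a start peak in every library at 4 of 5. Ptpn3 had 12 regions, 7 of them in all libraries. Its leading region (chr4:57294882-57295585) lay 6.60 kb downstream of the RefSeq start used, with folds of 9.22 to 11.3. That start (chr4:57301837, minus strand) lies inside the annotated gene (chr4:57190841-57339040). At Ptpn4 and Ptpn13 the leading region was at the start, with folds of 9.98 to 13.0 and 8.17 to 11.2. Ptpn14, whose product binds the co-activator YAP, had 13 regions and a leading region (chr1:189867098-189868417) 139 kb into the gene. Its folds of 6.89, 7.18 and 6.48 under the NC label and 9.27, 9.64 and 9.75 under the siRNA label did not overlap.

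At Ptpn21, a peak over the start was present in all NC-labelled libraries and in siRNA-labelled libraries 1 and 3. It has 2 annotated starts, each with a region missing from siRNA-labelled library 2. The region at the upstream start (chr12:98736997-98737895) held 12, 19 and 9 summit fragments under the NC label, and 13 and 11 in the 2 libraries of the siRNA label that had it. The region at the other start (chr12:98734412-98735228) held 13, 13 and 10 against 13 and 19. These are low counts, and a missing peak was not distinguishable from a peak under the calling threshold at this depth. A start peak that differed by 2 or more libraries between the groups was seen at 1.96% of all genes and at 0 of the phosphatase genes.

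The remaining non-receptor genes Ptpn9 and Ptpn23, which act on secretory vesicles and endosomes, had leading regions at their starts with folds of 6.67 to 8.99 and 4.99 to 6.85. Ptpn20 had none.

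Among the receptor genes of the LAR group, which bind matrix proteoglycans, Ptprs, Ptprf and Ptprd differed. Ptprs had its leading region (chr17:56461894-56463049) over an internal annotated start, with 188, 197 and 177 summit fragments under the NC label and 143, 138 and 158 under the siRNA label. Every NC-labelled library held more unscaled fragments, as their coverage did, while the folds of 9.36, 8.98 and 9.47 against 9.81, 9.09 and 9.22 overlapped. Ptprf had 9 regions, 4 of them in all libraries, but none at its start. Its leading region (chr4:118295705-118296115) was centred at -4.51 kb, upstream of the start, with folds of 7.35, 7.41 and 9.13 under the NC label and 6.31, 6.67 and 5.89 under the siRNA label, which did not overlap. Ptprd, 2270506 bp long and mainly known from neurons, had no peak.

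The MAM group mediates adhesion between like cells. Ptprm had 49 regions, the most of any phosphatase gene, with 13 of them in all libraries and 21 in 1 library only. Its leading region (chr17:67150248-67150865) lay 204 kb into the gene and not within 1 kb of a protein-coding gene start, the only starts searched. The folds of that region were 16.7, 20.9 and 20.8 under the NC label and 19.7, 20.9 and 22.8 under the siRNA label. The groups overlapped. Ptprk had 14 regions and a leading region at its start (chr10:28074064-28076082), with folds of 7.86 to 10.1. Ptpru had a start peak (chr4:131838058-131838351) in NC-labelled library 1 and siRNA-labelled libraries 1 and 2, with 8, 10 and 8 summit fragments. Ptprt, 1139 kb long, had 1 region, in siRNA-labelled library 2.

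**Figure D3:**
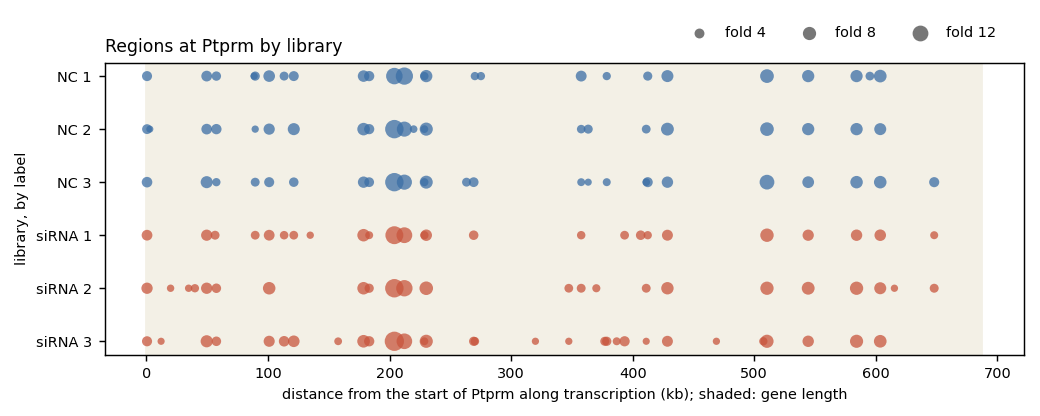
Regions at Ptprm in which a library (row) had a peak, by distance of the region's centre from the gene start along transcription in kb, with larger points for a higher deposited fold. The largest points stand at 204 and 212 kb in all 6 libraries, and the shaded band is the gene.

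In the R3 group, Ptprj (DEP-1) had 18 regions, a start peak in every library, and a leading region (chr2:90542328-90543436) 37.7 kb into the gene. The folds of that region were 9.02, 7.46 and 8.13 under the NC label and 7.89, 9.20 and 9.36 under the siRNA label, and these overlapped. A peak covered some of the outer Ptprj promoter in 4 libraries and of the inner one in 0. Ptprb (VE-PTP), the endothelial partner of the receptor Tek, had 13 regions and none at a gene end. Ptpro and Ptprq, known from podocytes and hair cells, had 4 and 5 regions and no start peak, and Ptprh had 1 region, in siRNA-labelled library 2.

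The R4 genes code for activators of Src family kinases and both had start peaks in every library. Ptpra had 11 regions, the highest of them at the start of Mrps26. Ptpre had 15 regions, 6 of them in all libraries, and its leading region (chr7:135588604-135589216) had folds of 9.62 to 12.1. In the R5 group, Ptprg had 27 regions and a leading region (chr14:11617263-11618651) 64.4 kb from its start, with folds of 10.5, 10.1 and 9.10 under the NC label and 11.3, 11.8 and 8.99 under the siRNA label. These ranges overlapped as well. Ptprz1, the pleiotrophin receptor, had no peak.

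The kinase-interaction-motif genes act on MAP kinases. Ptpn5 (STEP) had 9 regions and a start peak (chr7:47132544-47133038) in NC-labelled library 2 and siRNA-labelled library 3 alone, with 7 and 11 summit fragments. Ptprr and Ptpn7 had no start peak, and the leading region of Ptpn7 lay at the start of Arl8a. Of the secretory granule pair, Ptprn had a peak within 1 kb of a start in every library and a leading region at the start of Dnajb2. Both of its annotated promoters had a peak over them in 0 libraries. Ptprn2, 792 kb long, had 7 regions, none in all libraries.

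Most leading regions were not at the gene's own start. Of 32, 11 were at the start and 21 were not, and those of Ptpn22, Ptpn6, Ptprn, Ptpra, Ptpn7 and Ptpru lay at the start of another gene. Of the 109 regions in all libraries, 24 lay at the gene's own start, 69 in the gene away from it and 16 outside the gene. The median of their mean within-list percentile of −log10 q was 74.9 at the start and 63.9 elsewhere.

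Region number did not follow gene length throughout. Regions per 100 kb, counted with the 10 kb on each side, had a median of 6.92 over the phosphatase genes and 4.93 over all genes. Their median lengths were unlike, at 69.85 kb and 17.2 kb. Split by type, the medians of regions per 100 kb follow. The median was 7.43 for the non-receptor genes, with a median length of 56.0 kb, and 3.81 for the receptor genes, with a median length of 178 kb. For the 227 genes over 500 kb in the genome the median was 0.804 regions per 100 kb. The 6 phosphatase genes of that size ranged from Ptprd with 0 and Ptprt with 1 to Ptprm with 49, which is 6.92 per 100 kb. No test was made, since the genes were chosen with these results known.

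**Figure D4:**
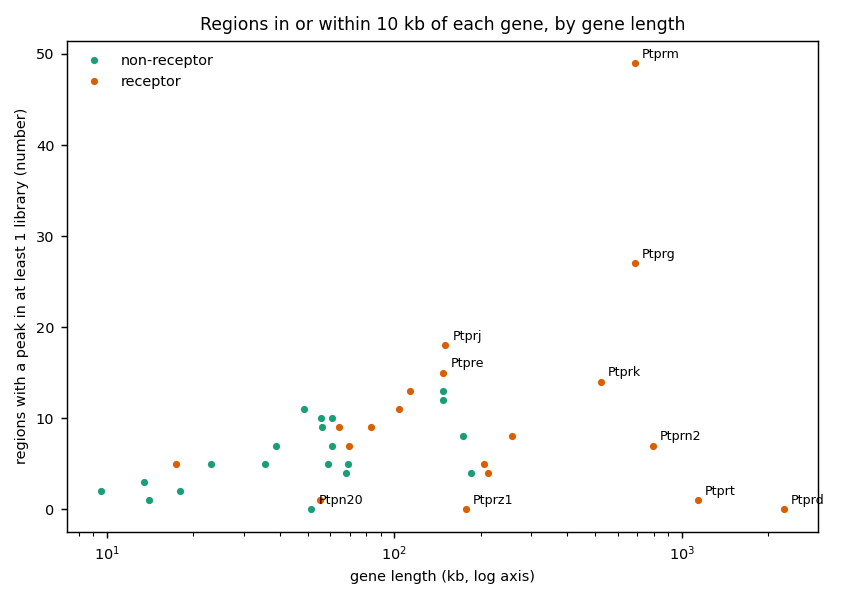
Number of regions with a peak in at least 1 library, in or within 10 kb of each of the 39 phosphatase genes, against gene length in kb (log axis), with non-receptor genes in green and receptor genes in orange. Among the 6 genes over 500 kb, the number runs from 0 at Ptprd to 49 at Ptprm.

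Peak numbers at the phosphatase genes were compared by label to ask whether they fell in the siRNA-labelled libraries. There were 185, 179 and 197 peaks in libraries 1 to 3 of the NC label and 182, 186 and 206 in those of the siRNA label, or 187 ± 9.17 against 191 ± 12.9 (SD, n = 3 each). The numbers overlapped. Phosphatase genes with a start peak numbered 23, 23 and 22 against 23, 22 and 23, and genes with any peak 33, 33 and 33 against 33, 35 and 33. Peaks were wider in the NC-labelled libraries, with a mean of 573, 570 and 532 bp against 477, 466 and 482 bp, and covered 106053, 102032 and 104881 bp against 86759, 86720 and 99297 bp. Width and covered length were higher in every NC-labelled library, as was background coverage, and the part of coverage in this was not tested. Median folds of 5.90, 6.52 and 6.11 against 5.76, 6.01 and 6.22 overlapped.

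Regions present in all libraries of one label and none of the other were few, at phosphatase genes as over all regions. Of the 323 regions at phosphatase genes, 2 had a peak in every NC-labelled library and in no siRNA-labelled library, against 0.608% of all regions. The opposite pattern was seen at 0, against 0.342% of all. Both numbers are near those shares. Of the 2 regions, 1 (chr7:135667339-135667969) lay 61.8 kb from the nearest start of Ptpre, with 5, 8 and 6 summit fragments. The other (chr10:116268052-116268565) lay inside Ptprr and within 10 kb of Ptprb, with 12, 17 and 12. These summits are below the lists' medians, and with 3 against 3 libraries an exact test of presence cannot go below 0.1.

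Summit fragments were then tested in the 29602 regions with a peak in all libraries, after scaling each library by its background coverage, with limma and Benjamini-Hochberg adjustment over all regions. Of the 109 regions at phosphatase genes, 0 passed an adjusted p of 0.05, against 0.409% of all regions (111 higher and 10 lower in the siRNA-labelled libraries, 0.375% and 0.0338%). Without siRNA-labelled library 1, 7 of 119 phosphatase regions passed (5.88%, all higher), against 3.71% of all regions (1097 higher and 75 lower). With no scaling 6 of 109 passed (5.50%, all lower), against 10.2% of all regions (4 higher and 3006 lower). With scaling by the median ratio of the regions in place of background, 0 of 109 passed, against 0.23% of all regions (29 higher and 39 lower). At an unadjusted p under 0.05 there were 16 phosphatase regions (14.7%), against 14.3% of all regions in either direction, a share near that background. All 16 were higher in the siRNA-labelled libraries, the direction in which all regions leaned under background scaling. The split by direction over all regions was not counted at this p, so the 16 are not read as particular to phosphatase genes. The median log2 difference, siRNA-labelled minus NC-labelled, was 0.13 at phosphatase regions and 0.11 over all regions. Relative to that overall shift, 61 of 109 phosphatase regions lay above and the others below, and single differences ran from -0.41 to 0.76 with a median standard error of 0.20.

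**Figure D5:**
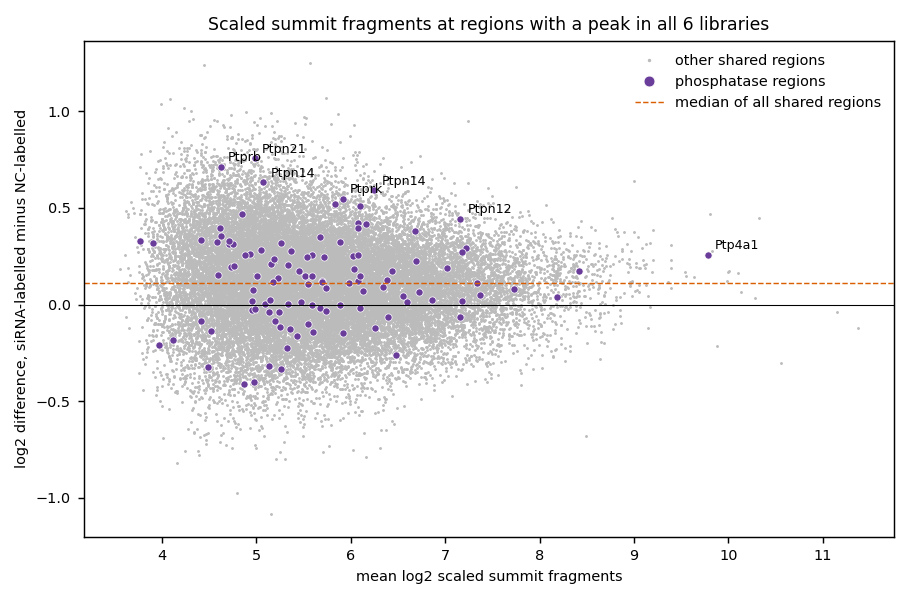
Log2 difference in background-scaled summit fragments, siRNA-labelled minus NC-labelled, against mean log2 level, for the 109 phosphatase regions (purple) and the other regions (grey) with a peak in all 6 libraries. The dashed line marks the median of all regions at 0.11, phosphatase regions lie on both sides of it from -0.41 to 0.76, and the named ones have the largest differences or smallest p.

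Values for the regions furthest from no difference follow, none of which passed. The Ptp4a1 start region had a log2 difference of 0.26 (SE 0.067, limma adjusted p = 0.0586). It was -0.14 with no scaling and 0.32 without siRNA-labelled library 1, where it passed (limma adjusted p = 0.0003). The region 139 kb into Ptpn14 held 39, 44 and 36 fragments under the NC label and 43, 42 and 52 under the siRNA label, a log2 difference of 0.59 (limma adjusted p = 0.0642, and 0.0274 without siRNA-labelled library 1). For the Ptpn12 gene-end region, with 74, 93 and 72 against 65, 90 and 94 fragments, the difference was 0.44 (limma adjusted p = 0.108, and 0.00343 without siRNA-labelled library 1). Unscaled fragments overlapped at each of these 3 regions.

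The largest difference was at a region beyond the end of Ptpn21 (chr12:98674698-98675064), with 13, 17 and 15 fragments under the NC label and 18, 24 and 17 under the siRNA label, a log2 difference of 0.76 (SE 0.22, limma adjusted p = 0.101). A region in Ptprb (chr10:116304447-116305394) held 12, 13 and 10 against 11, 17 and 17 fragments (0.71, limma adjusted p = 0.141). A further Ptpn14 region, 72.0 kb into the gene (chr1:189799889-189800644), held 21, 13 and 17 against 17, 21 and 22 (0.63, limma adjusted p = 0.157). In Ptprk, 39.2 kb into the gene (chr10:28113692-28114385), the counts were 26, 39 and 31 against 29, 35 and 43 (0.55, limma adjusted p = 0.142). Without siRNA-labelled library 1 the Ptprb and Ptprk regions passed (limma adjusted p = 0.0348 and 0.0305), and so did the leading Ptp4a2 region (0.0423). Most of these summits, Ptp4a2 apart, held few fragments, where counting error is large.

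The deposited folds separated the labels at 12 of the 109 regions. In 6 every NC-labelled fold exceeded every siRNA-labelled fold, against 6.12% of all regions in all libraries, and in 6 the reverse held, against 6.84% of all. Both shares are close to those backgrounds.

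Other genes of tyrosine phosphate signalling were counted from lists made with earlier results known. Of 20 receptor tyrosine kinases, the substrates and opponents of these enzymes, 9 had a start peak in all libraries (45.0%, against 45.1% of all genes) and 3 in none (15.0%, against 42.8%). The number of libraries differed by 2 or more between the labels at 2 genes, against 1.96% of all genes. Epha2 had a start peak in 0 libraries of the NC label and 3 of the siRNA label, and Fgfr1 in 1 and 3. Of 22 Src family, JAK, STAT and focal adhesion genes, 19 had a start peak in all libraries (86.4%) and 1 in none (4.55%). Among 29 adaptors, ligands and partners of the phosphatases the numbers were 22 (75.9%) and 5 (17.2%). In neither of these lists did a gene differ by 2 or more libraries. None of the 62, 83 and 98 regions of these lists passed the limma test in either direction, against 0.409% of all regions. With so few regions in each list, 0 is near that share. At an unadjusted limma p under 0.05 there were 5, 11 and 20 (8.06%, 13.3% and 20.4%), against 14.3% of all regions.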

How the data were processed

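Arid3a CUT&Tag peak lists of 6 libraries were used. Per the submitters' processing notes, the tools were Bowtie2, Picard and MACS2 and the build mm10. Their versions and settings were not given in the sources read. The authors deposited 1 list per library, holding for each peak an integer score (not used further), the fold enrichment over local background at the summit (a ratio), and p- and q-values as −log10. Lowest −log10 q of the lists were 1.30 to 1.32.

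From the fold and the −log10 p, with a pseudocount of 1, whole summit fragments and the local background were solved for 100% of peaks (relative tolerance 0.002). Each library was scaled by the lowest background its peaks most often shared. The solver and the region test were tested on simulated data. Peaks were merged on 1 bp of overlap. Gene positions and promoters came from RefSeq tables of GRCm38.p6, the assembly of mm10. The region test was limma with trend on log2(summit fragments + 1) minus log2 background, over regions with a peak in every library, with a threshold of 0.05 after Benjamini-Hochberg adjustment (Python 3.11.15, pandas 2.3.3, numpy 2.4.6, scipy 1.17.1, R 4.3.3, limma 3.58.1).

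The leading region of a gene had the highest smallest within-list percentile of −log10 q. Named with values were the 10 genes with the highest leading regions, genes with one-sided regions, with start peaks in some libraries only or with no peak, the 5 regions with the largest difference and the 5 with the smallest p, and in each subfamily the gene with the most regions. Genes, lists, rules and tests were chosen with earlier results of these data known. The planned comparison of protein sequences was not made. Libraries numbered alike were not treated as pairs.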

Additional observations from a re-analysis of the deposited data

How the results depend on the processing

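Of 292 values recomputed under alternatives, 209 kept their direction and side of the threshold or stayed within the allowed range, 10 passed the threshold newly, 57 moved and 16 turned. The number of regions higher and lower in the siRNA-labelled libraries was 29 and 39 with median ratio scaling, 4 and 3006 with no scaling, and 23 and 5 with siRNA-labelled libraries 2 and 3 as 1 sample. Leaving out each library in turn gave 6 to 1097 higher, the last without siRNA-labelled library 1, and 0 to 75 lower. Same-numbered libraries had correlated deviations of 0.04, 0.03 and -0.02, so the numbers are not taken to pair them. With a replicate block 380 were higher and 26 lower, and with the block and median ratio scaling together, chosen after seeing the data, 41 and 68. The replicate block called 3 of 109 phosphatase regions (2.75%, against 1.37% of all): Ptp4a1 at 0.26, Ptpn14 at 0.59 and Ptpn12 at 0.44 (limma adjusted p = 0.0195, 0.0331 and 0.0410). With the block and median ratio scaling 0 passed, against 0.368% of all, and the same regions had 0.289, 0.140 and 0.207. No scaling called 6 (5.50%, against 10.2%), and leaving out each library 0 to 7, with 7 (5.88%, against 3.71%) without siRNA-labelled library 1. With no scaling the differences turned at Ptp4a1 (-0.14), Ptp4a2 (-0.22), Ptprs (-0.36), Ptpn22 (-0.34), Ptprm (-0.12), Ptpn6 (-0.31), Ptprg (-0.10) and Ptprj (-0.28). Median ratio scaling, with or without the replicate block, turned Ptprs (-0.070), Ptpn22 (-0.057) and Ptpn6 (-0.027). Leaving out each library moved Ptpn22 between -0.022 (without siRNA-labelled library 2) and 0.13, and Ptpn6 between -0.013 (without NC-labelled library 1) and 0.21. Scaling removes or keeps the coverage gap by construction, and other causes were not tested.

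Regions in every library of the NC label and none of the siRNA label numbered 1069 if peaks had to cover 50% of a region and 806 to 1205 with each library left out, where fewer libraries are needed. The opposite pattern numbered 118 at a −log10 q of at least 5 and 518 to 1087 with each library left out. At phosphatase genes the first pattern gave 1 region at that q, 1 with equal peak numbers in the lists, 6 with 50% cover and 3 to 5 with each library left out. The second gave 1 at that q and 0 to 3 with each library left out. Mean peaks per library at phosphatase genes were 164 and 167 inside genes only, and 138 and 131 at that q. The number of phosphatase genes with a start peak in every library lay between 20 and 22 under each alternative tried. Low summit counts limit what can be seen at most regions.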
